A study of Homo sapiens with 27 samples.

Results

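The integrated stress response is switched on by 4 protein kinases, EIF2AK1, EIF2AK2, EIF2AK3 and EIF2AK4, and switched off by 2 regulatory subunits of protein phosphatase 1, PPP1R15A and PPP1R15B. These 6 genes were taken by symbol for their place in the pathway, and all 6 were found among the 27115 genes measured. RNA-seq libraries came from 3 established diffuse large B-cell lymphoma (DLBCL) lines, Karpas422 of the oxidative phosphorylation subtype, OCI-Ly1 of the germinal center B cell-like subtype and HBL1 of the activated B cell-like subtype. Cells of each line were infected with lentivirus carrying a scramble control hairpin (shCTRL) or a hairpin against SIRT3, a mitochondrial deacetylase (shSIRT3-1 or shSIRT3-2), and were taken after 8 days. With 3 replicates per hairpin in each line there were 9 groups and 27 libraries, and the comparisons ask whether loss of SIRT3 changed the level of these mRNAs. Every group, shCTRL included, carried a viral hairpin, and each subtype was represented by a single line. By the study's methods OCI-Ly1 was grown in Iscove's medium, and Karpas422 and HBL1 in RPMI with L-glutamine and HEPES. Differences between OCI-Ly1 and the other lines therefore cannot be told apart from those of medium. The knockdown was done in replicates, but neither the labels nor the study's methods say that these were separate cultures or infections, so the p-values measure the spread between these libraries, which may be technical.

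The 4 kinases share a single substrate, the alpha subunit of translation initiation factor eIF2, and differ in the stress that wakes them. EIF2AK1 (HRI) answers heme shortage and signals of mitochondrial distress, EIF2AK2 (PKR) binds double-stranded RNA and is itself induced by interferon, EIF2AK3 (PERK) sits in the endoplasmic reticulum (ER) membrane, and EIF2AK4 (GCN2) senses uncharged tRNA when amino acids run short. Phosphorylated eIF2 slows general translation but favors that of ATF4, whose targets include PPP1R15A (GADD34), an inducible subunit that returns eIF2 to its active form, while PPP1R15B (CReP) does so in unstressed cells. The libraries measured mRNA, and neither kinase activity nor eIF2 phosphorylation was measured in them.

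Libraries held 28694398 to 53405456 reads assigned to genes. The lowest level of any of the 6 genes in any library, 6.39 CPM (read counts scaled to library size) for PPP1R15A in OCI-Ly1 shCTRL replicate 1, rested on 618 reads, so all 6 passed the filter on low values. SIRT3 itself lay between 9.14 and 16.4 CPM in the 9 shCTRL libraries and fell by 2.45 on the log2 scale with shSIRT3-1 and by 1.37 with shSIRT3-2, with every knockdown library below every control of its line. All 6 B cell markers examined reached 1 CPM in all libraries, but their summed level was lower with shSIRT3-2 than with shCTRL, without overlap, in Karpas422 (945 to 1484 against 1633 to 2363 CPM) and HBL1 (1495 to 1572 against 1779 to 2194). Markers of other cell types also moved with the hairpins. Of 3 fibroblast markers only DCN reached 1 CPM throughout Karpas422, where the summed level of the list was 401 to 423 CPM with shCTRL, 144 to 292 with shSIRT3-1 and 104 to 279.9 with shSIRT3-2. In HBL1 only COL1A2 did, and the sum was 13.0 to 15.4, 1.80 to 5.78 and 36.8 to 62.1 CPM in the same order, whereas in OCI-Ly1 it never passed 0.109 CPM. Of 4 T cell markers, CD3G gave most of the sum in Karpas422, which was 37.5 to 43.3 CPM with shCTRL, 18.5 to 31.7 with shSIRT3-1 and 30.4 to 40.2 with shSIRT3-2, against at most 0.103 CPM in the other lines. Of 4 monocyte and macrophage markers only CD68 reached 1 CPM throughout, in Karpas422 and HBL1, and their sum was higher with shSIRT3-2 than with shCTRL, without overlap, in both lines (3.998 to 4.35 against 2.03 to 3.14 and 2.30 to 3.30 against 1.81 to 2.20 CPM). Of 3 epithelial markers only EPCAM reached 1 CPM throughout HBL1. Their sum there was 4.81 to 7.42 CPM with shCTRL, 3.62 to 4.44 with shSIRT3-1 and 3.56 to 4.29 with shSIRT3-2. In OCI-Ly1 it was 0.466 to 0.606, 0.247 to 0.420 and 0.139 to 0.196 CPM in the same order, and in Karpas422 at most 0.0464. The part of these markers in the results was not tested, and in bulk RNA a change in the mix of cells and a change in RNA per cell cannot be told apart.

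The 6 genes lie on 5 chromosomes (hg19). EIF2AK1 (chr7:6061878-6098806, minus strand) has 15 exons in its canonical transcript, EIF2AK2 (chr2:37326353-37384665, minus strand) and EIF2AK3 (chr2:88856259-88991036, minus strand) have 17 each, EIF2AK4 (chr15:40226316-40327792, plus strand) has 39, PPP1R15A (chr19:49375469-49379316, plus strand) has 3 and PPP1R15B (chr1:204365620-204381015, minus strand) has 2. The library kit does not mark strand, so reads in exons shared with a gene on the opposite strand cannot be assigned with certainty. For EIF2AK1 this concerned 532 exonic bases, 12.1% of its canonical exons, shared with AIMP2, a scaffold protein of the tRNA synthetase complex. Long noncoding RNAs not listed in the files shared 781 exonic bases (17.2%) with EIF2AK3 and 453 (8.61%) with PPP1R15B. EIF2AK2 shared 35 bases with GPATCH11 and 167 with a pseudogene, and EIF2AK4 and PPP1R15A shared none.

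Promoters of 5 of the 6 genes were held in the RefSeq promoter table (GRCh38.p14), from 250 bases before to 50 bases after each start, and were searched on both strands for 5 motifs. Distances are counted from these RefSeq starts, whereas the gene spans are those of GENCODE. The RefSeq start lies inside the GENCODE span for EIF2AK2, EIF2AK3, PPP1R15A and PPP1R15B, and is the same for EIF2AK4. The stretches shown are those in which a motif tied to the pathway or to interferon was found, with the motif in capitals and its hg19 position found by exact match.
EIF2AK2: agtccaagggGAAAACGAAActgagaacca
PPP1R15A: gcctctcttcgTGACGTCAgcacgccgggc
PPP1R15B: ccgccccggcTGATGCAACctcacgctgcc
The EIF2AK2 stretch (chr2:37384110-37384139, minus strand) holds the core of an interferon-stimulated response element (GAAA, any 2 bases, GAAA), which begins 6 bases before the start, and 3.57% of all 35116 promoters held such a core. In PPP1R15A (chr19:49375609-49375638, plus strand) a cyclic AMP response element, TGACGTCA, begins 58 bases before the start, and 1.85% of promoters held it. In PPP1R15B (chr1:204381153-204381182, minus strand) a C/EBP-ATF composite element, TGATGNAAN, begins 227 bases before the start, and 3.61% of promoters held it. By the GENCODE spans, the EIF2AK2 and PPP1R15A stretches lie inside the gene and the PPP1R15B stretch lies before it. The CCAAT box, found in 34.6% of promoters, occurred 4 times in EIF2AK3, 2 times in EIF2AK2 and 1 time in PPP1R15B, and the longer ER stress response element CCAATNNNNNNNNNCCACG, which contains it and was found in 0.0769% of promoters, matched in none of the 5. None of the 3 capitalized matches overlaps another, and a match is a description of letters and not of a bound site.

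In control cells EIF2AK1 had the highest mean level of the 6 per unit of length and EIF2AK2 and PPP1R15A were the most variable between lines. Divided by the length of the canonical exons, EIF2AK1 stood at 31.1 CPM per kb (Karpas422), 28.6 (OCI-Ly1) and 39.0 (HBL1), and only in HBL1 did the libraries of the next gene, PPP1R15A, reach into its range. EIF2AK3 was the lowest in Karpas422 (5.41 CPM per kb) and HBL1 (3.21), while EIF2AK2 was the lowest in OCI-Ly1 (1.65). Reads were counted on RefSeq genes but divided by the length of a single transcript, so ranks between genes rest on that length. Undivided, EIF2AK2 (9.97 kb) read 16.5 CPM in OCI-Ly1 controls and PPP1R15A (2.35 kb) read 8.80. The remaining order differed by line. PPP1R15A ran from 3.74 CPM per kb in OCI-Ly1 through 17.1 in Karpas422 to 32.8 in HBL1, PPP1R15B held 10.8, 17.7 and 11.99 in the same lines, and EIF2AK4 held 10.8, 6.42 and 8.12. Neighbours in this order whose libraries overlapped were PPP1R15B, PPP1R15A, EIF2AK2, EIF2AK4 and EIF2AK3, each with the next, in Karpas422, EIF2AK4 with PPP1R15B and EIF2AK3 with PPP1R15A in OCI-Ly1, and EIF2AK1 with PPP1R15A and EIF2AK2 with EIF2AK4 in HBL1.

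**Figure D1:**
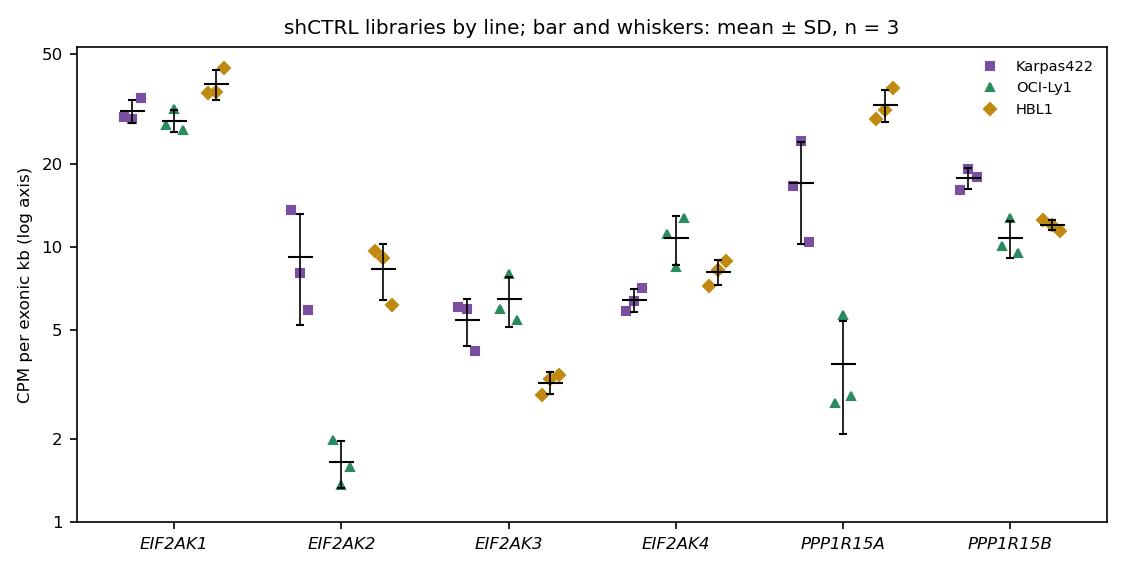
Level of each of the 6 genes in the shCTRL libraries, in CPM per exonic kb on a log axis, with a point for each of 3 libraries per line and a bar with whiskers for the mean ± SD. EIF2AK1 lies highest in Karpas422, OCI-Ly1 and HBL1, and the widest gaps between lines are those of EIF2AK2 and PPP1R15A.

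Among the 9 shCTRL libraries, 4 of the 6 genes differed between HBL1 and Karpas422 (67.8% of 12607 genes passed), 5 between HBL1 and OCI-Ly1 (67.3%) and 4 between Karpas422 and OCI-Ly1 (63.6%), at an adjusted p under 0.05 (limma, Benjamini-Hochberg). These shares are close to those of all genes, since most genes differed between lines. In the contrasts with OCI-Ly1, line and culture medium cannot be told apart. The largest difference was that of PPP1R15A, 9.13-fold higher in HBL1 than in OCI-Ly1 (adjusted p = 7.85e-06), and it was 4.52-fold higher in Karpas422 than in OCI-Ly1 (adjusted p = 0.000165). EIF2AK2 was 5.25-fold higher in Karpas422 and 4.98-fold higher in HBL1 than in OCI-Ly1 (adjusted p = 3.21e-05 and 3.53e-05), whereas its log2 difference between HBL1 and Karpas422, -0.08 (95% interval -0.71 to 0.55, adjusted p = 0.819), did not pass. PPP1R15B was 1.65-fold higher in Karpas422 than in OCI-Ly1 (adjusted p = 0.000454), and EIF2AK4 was lower there (log2 difference -0.73, adjusted p = 0.00187). EIF2AK3 was lower in HBL1 than in Karpas422 (log2 difference -0.73, adjusted p = 0.00421) and OCI-Ly1 (-0.99, adjusted p = 0.000623). The 2.02-fold higher PPP1R15A in HBL1 than in Karpas422 (adjusted p = 0.0171) was lost without Karpas422 shCTRL replicate 3 (adjusted p = 0.0679) or HBL1 shCTRL replicate 3 (0.0553). Smaller baseline calls for EIF2AK1 (HBL1 against Karpas422) and EIF2AK4 (HBL1 against OCI-Ly1) were lost without any of 5 and any of 6 of the 9 libraries, respectively.

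After SIRT3 knockdown, both phosphatase subunits were lower with each hairpin, while the kinases were lower mainly with shSIRT3-1. Over the 3 lines, 5 of the 6 genes fell with shSIRT3-1, against 22.3% of 13076 genes that passed in that direction (37.9% in either), and 1, EIF2AK4, also passed a fold of 1.5 (13.0% of genes). With shSIRT3-2, 2 of the 6 fell (21.7% of genes passed lower and 38.1% in either direction), and 1, PPP1R15A, also passed a fold of 1.5 (13.5%). The median log2 difference of the 6 was -0.44 with shSIRT3-1 and -0.16 with shSIRT3-2, beside -0.05 and -0.03 for all genes tested. Both comparisons use the same shCTRL libraries. Among all passing genes 58.9% were lower with shSIRT3-1 and 57.1% with shSIRT3-2, but 44.6% and 45.6% after quantile normalization, under which each of the 7 calls on the 6 genes kept its direction.

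Set against shSIRT3-1, shSIRT3-2 libraries held more EIF2AK1, EIF2AK3 and EIF2AK4, so that 3 of the 6 genes were higher (16.6% of genes passed higher and 31.7% in either direction). The log2 differences were 0.22 for EIF2AK1 (adjusted p = 0.0114), 0.29 for EIF2AK3 (adjusted p = 0.0406) and 0.41 for EIF2AK4 (adjusted p = 0.0147). For the phosphatase subunits the hairpins did not differ past the threshold, with intervals of -0.54 to 0.22 for PPP1R15A and -0.28 to 0.06 for PPP1R15B. The call on EIF2AK3 was lost without any of 12 of the 27 libraries, with adjusted p between 0.0247 and 0.0832, and with quantile normalization (0.0895), edgeR (0.0563) and no filter (0.0589). Quantile normalization also ended that on EIF2AK1 (adjusted p = 0.0910).

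**Figure D2:**
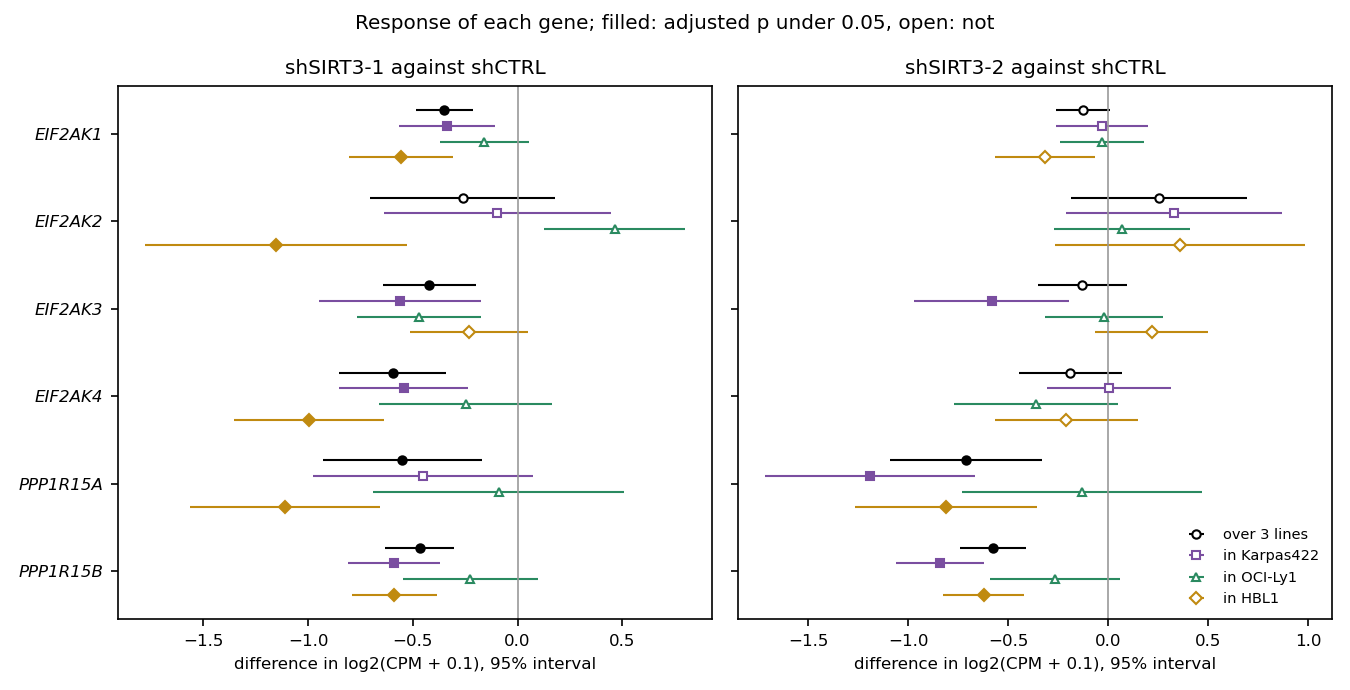
Log2 difference from shCTRL for each of the 6 genes and each hairpin, over the 3 lines and in each line, with 95% intervals, filled where the adjusted p was under 0.05. The PPP1R15B points lie below 0 with both hairpins everywhere, with intervals that cross 0 in OCI-Ly1, and EIF2AK2 in HBL1 lies at -1.15 with shSIRT3-1 and at 0.36 with shSIRT3-2.

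Within lines the 6 genes were counted first in fits without the replicate block. The number of them that passed was highest in HBL1 with shSIRT3-1, highest in Karpas422 with shSIRT3-2 and lowest in OCI-Ly1 with both. In HBL1, 5 of the 6 genes fell with shSIRT3-1 (25.1% of 11862 genes passed lower, 40.0% in either direction) and 2 with shSIRT3-2 (21.3% and 34.7%). In Karpas422, 4 fell with shSIRT3-1 (22.2% of 11235 genes, 33.7% in either direction) and 3 with shSIRT3-2 (16.4% and 31.1%). In OCI-Ly1 limma called 0 of the 6 with shSIRT3-1, where 7.31% of 11205 genes passed, and 0 with shSIRT3-2 (9.42%). Unadjusted p was under 0.05 for 2 and 0 of them, and edgeR on the recovered reads called 1 and 0. Replicate numbers were taken to pair the OCI-Ly1 and HBL1 libraries, from the data and not from the labels. Under the replicate block, 2 of the 6 passed with each hairpin in OCI-Ly1, where 1456 and 1783 of 11205 genes passed. In HBL1, 4 passed with shSIRT3-2 (5299 of 11862 genes), against 3 in Karpas422, whose numbers were not taken as pairs. Without the block these counts over all genes were 819, 1055 and 4121. Between the hairpins, 2 of the 6 differed in Karpas422 (22.7% of genes passed). That count ran from 0 to 3 over the libraries or replicate numbers left out. In HBL1, 3 were higher with shSIRT3-2 (21.3% of genes were, and 39.9% passed in either direction). In OCI-Ly1 limma called 0 (7.10%), unadjusted p was under 0.05 for 2 and edgeR called 0. There the block gave 1, beside 1274 of 11205 genes. A test of the difference in response between lines passed for 4 of the 6 genes (41.8% of all genes passed), with adjusted p of 0.00247 for EIF2AK2, 0.0293 for EIF2AK4, 0.0352 for PPP1R15A and 0.0410 for EIF2AK3. Scaling mattered for all genes in HBL1, where quantile normalization moved the median log2 difference of all genes from -0.11 to 0.04 with shSIRT3-1, yet 5 of the 6 genes were called lower under every scaling tried.

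**Figure D3:**
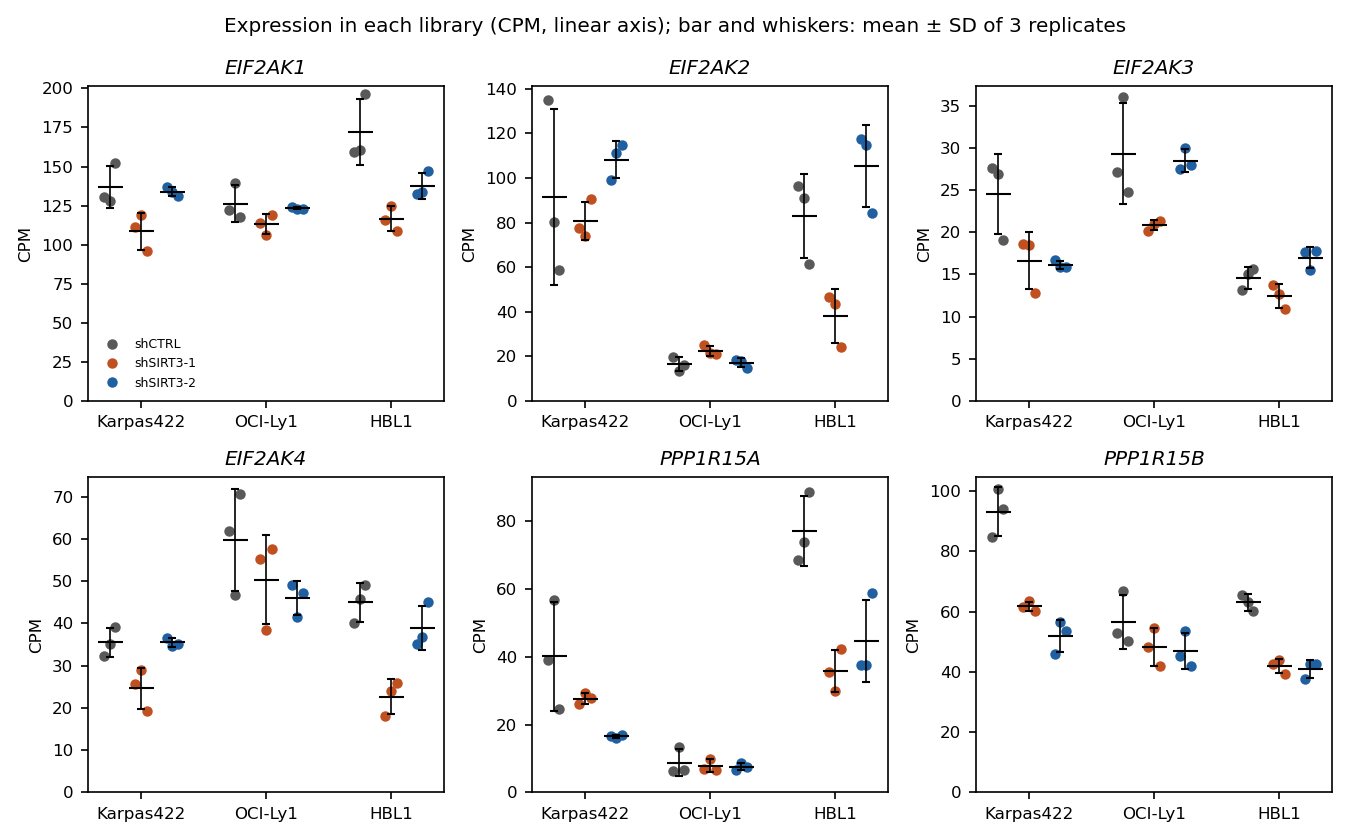
CPM of each of the 6 genes in all 27 libraries on linear axes, by line and hairpin, with a point per library and the mean ± SD of 3 libraries. PPP1R15A and PPP1R15B sit below the controls with both hairpins in HBL1, and all OCI-Ly1 libraries lie low for EIF2AK2 and PPP1R15A.

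EIF2AK1, the kinase tied to heme and mitochondrial stress, fell modestly with shSIRT3-1. In HBL1 it read 159, 160.4 and 196 CPM with shCTRL, 116, 125 and 109 with shSIRT3-1 and 132, 133 and 147 with shSIRT3-2. Both knockdown groups lay wholly below the controls there, and shSIRT3-1 libraries lay wholly below shSIRT3-2 libraries. In Karpas422 it read 131, 128 and 152 CPM with shCTRL, 111, 119 and 95.7 with shSIRT3-1 and 137, 134 and 131 with shSIRT3-2. Here only the shSIRT3-1 libraries lay apart from the controls. OCI-Ly1 groups overlapped, at 126 ± 11.6 CPM with shCTRL, 113 ± 6.31 with shSIRT3-1 and 123 ± 0.568 with shSIRT3-2 (SD, n = 3). Across lines the log2 difference was -0.35 ± 0.07 (SE) with shSIRT3-1 (adjusted p = 0.000193, limma) and -0.13 with shSIRT3-2 (95% interval -0.26 to 0.01, adjusted p = 0.135).

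Within lines EIF2AK1 passed with shSIRT3-1 in HBL1 (log2 difference -0.56, adjusted p = 0.00454) and Karpas422 (-0.34, adjusted p = 0.0311). The Karpas422 call was lost without shCTRL replicate 1 or 3 or shSIRT3-1 replicate 1 or 3, with adjusted p between 0.0534 and 0.10001, and under quantile normalization, median-ratio scaling, edgeR and no filter. In HBL1 with shSIRT3-2 the difference was -0.32 (adjusted p = 0.0514), and it passed with the replicate block (adjusted p = 0.0468) and without HBL1 shSIRT3-1 replicate 3 (0.0224). AIMP2, which shares exonic bases with EIF2AK1, read in Karpas422 30.1 ± 1.93 CPM with shCTRL (SD, n = 3), 12.2 ± 0.180 after shSIRT3-1 and 11.8 ± 1.58 after shSIRT3-2, and its part in the EIF2AK1 values was not tested.

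EIF2AK2, the double-stranded RNA sensor, fell with shSIRT3-1 but not with shSIRT3-2 in HBL1 and was the gene whose response differed most clearly between lines. HBL1 libraries read 96.3, 91.1 and 61.5 CPM with shCTRL, 46.7, 43.6 and 24.0 with shSIRT3-1 and 117, 115 and 84.4 with shSIRT3-2. All shSIRT3-1 values fell below all controls, while 2 of the 3 shSIRT3-2 values rose above them and the third lay within their range. The log2 difference was -1.15 ± 0.28 (SE) with shSIRT3-1 (adjusted p = 0.0109) and 0.36 with shSIRT3-2 (95% interval -0.27 to 0.98, adjusted p = 0.341, or 0.0286 with the replicate block). Directly compared, shSIRT3-2 was 2.85-fold above shSIRT3-1 (adjusted p = 0.00429), and neither this call nor the fall with shSIRT3-1 was lost without any 1 of the 9 HBL1 libraries.

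In OCI-Ly1, EIF2AK2 was low. It read 19.9, 13.6 and 15.9 CPM with shCTRL, 25.1, 21.4 and 21.2 with shSIRT3-1 and 18.5, 18.1 and 14.8 with shSIRT3-2. All shSIRT3-1 values exceeded all controls and all shSIRT3-2 values, which overlapped the controls, and the hairpins differed by -0.40 on the log2 scale (adjusted p = 0.150). The log2 difference with shSIRT3-1 was 0.46 (adjusted p = 0.0899), which passed with the replicate block (0.0383) and without OCI-Ly1 shCTRL replicate 1 (0.0197). Karpas422 controls were spread widely, at 135, 80.1 and 58.7 CPM, around 77.7, 73.9 and 90.4 with shSIRT3-1 and 98.9, 111 and 115 with shSIRT3-2. Both knockdown groups of Karpas422 lay within the range of the controls, and shSIRT3-2 values lay above all shSIRT3-1 values (log2 difference 0.43, adjusted p = 0.225). Without shCTRL replicate 1, the highest control, the log2 difference in Karpas422 went from 0.33 (adjusted p = 0.324) to 0.66 (adjusted p = 0.0175) with shSIRT3-2 and from -0.10 to 0.23 with shSIRT3-1.

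The log2 differences of EIF2AK2 across lines, -0.26 with shSIRT3-1 (95% interval -0.70 to 0.18, adjusted p = 0.346) and 0.25 with shSIRT3-2 (-0.19 to 0.69, adjusted p = 0.371), did not pass. Without OCI-Ly1 the former was -0.63 (adjusted p = 0.0464) and without HBL1 it was 0.18. The difference in response between lines held without any 1 of the 27 libraries, with adjusted p between 0.000596 and 0.00780, and was lost on leaving out replicate 2 of every group (0.0802), HBL1 (0.163) or OCI-Ly1 (0.0643).

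The other interferon-stimulated genes, a list of 37 antiviral effectors and their regulators of which 36 were tested, also moved by line and hairpin. In HBL1, 16 fell and 0 rose with shSIRT3-1 (median log2 difference -0.87, beside -0.11 for all genes, of which 25.1% fell), and 26 were higher and 0 lower with shSIRT3-2 than with shSIRT3-1 (median 1.36, with 21.3% of all genes higher). With the replicate block 29 fell and 1 rose with shSIRT3-1, and 18 rose and 2 fell with shSIRT3-2 against 5 and 2 without it. Of all 11862 genes, 5908 and 5299 passed in either direction with the block, against 4745 and 4121 without it. In OCI-Ly1, 15 of the 29 tested rose and 0 fell with shSIRT3-1 (median 0.71), where 7.31% of all genes passed in either direction, and 2 rose with shSIRT3-2 (median 0.02), where 9.42% did. Karpas422 had 1 lower and 1 higher with shSIRT3-1 (median 0.65) and 1 lower and 20 higher with shSIRT3-2 (median 1.29), or 13 higher with edgeR or with no filter, beside 33.7% and 31.1% of all genes passing in either direction. The test of response by line passed for 31 of the 36 genes, beside 41.8% of all genes. The HBL1 fibroblast marker COL1A2 moved with the hairpins in the same order as EIF2AK2 in that line, at 14.2, 3.69 and 51.3 CPM on average with shCTRL, shSIRT3-1 and shSIRT3-2.

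Named by size over the 3 lines, RSAD2, which makes an antiviral nucleotide, rose by 1.72 on the log2 scale with shSIRT3-1 (adjusted p = 0.00653) and by 2.90 with shSIRT3-2 (adjusted p = 5.44e-05). IFI27 rose by 1.78 and 1.96 (adjusted p = 0.00273 and 0.00129). IFI44 rose by 1.47 with shSIRT3-1 (adjusted p = 0.0159) and read 1.03 with shSIRT3-2 (adjusted p = 0.0858), and IFIT1, which binds foreign RNA, read 0.64 (adjusted p = 0.309) and rose by 1.60 (adjusted p = 0.0107). The calls on RSAD2 and IFI44 with shSIRT3-1 were lost with a pseudocount of 1 (adjusted p = 0.0560 and 0.0748). Across lines 3 of the 36 genes rose and 1 fell with shSIRT3-1, and 9 rose and 1 fell with shSIRT3-2, beside 37.9% and 38.1% of all genes passing in either direction. Leaving out HBL1 gave 13 risen and 1 fallen with shSIRT3-1, and leaving out Karpas422 gave 1 of each with shSIRT3-2.

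**Figure D4:**
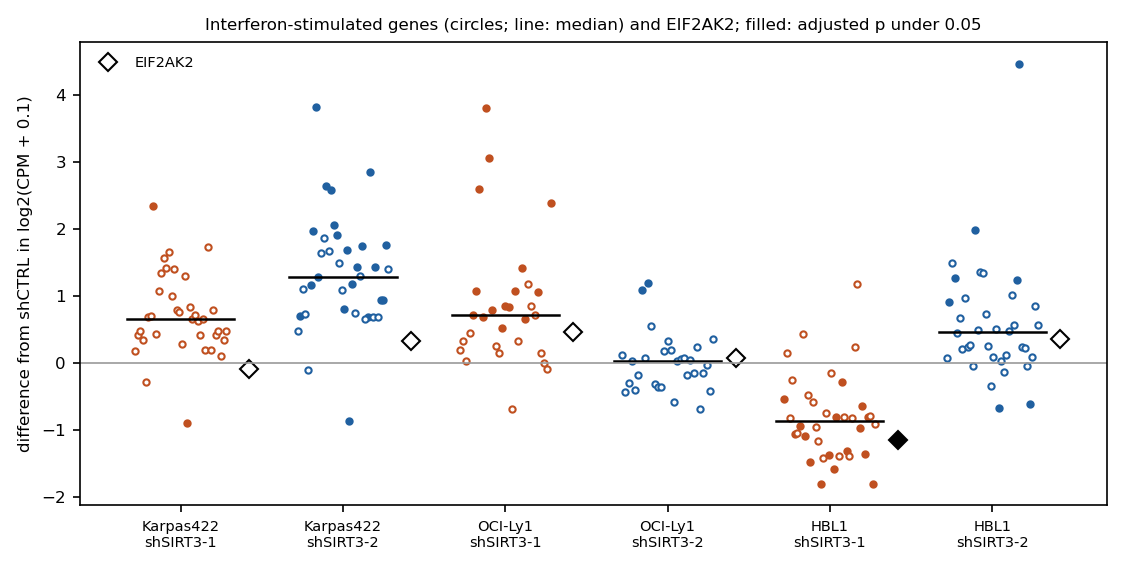
Log2 differences from shCTRL of the interferon-stimulated genes (points) with their median (line) and EIF2AK2 (diamond), for each hairpin in each line, filled where the adjusted p was under 0.05. In HBL1 the median lies at -0.87 with shSIRT3-1 and at 0.45 with shSIRT3-2, and in OCI-Ly1 at 0.71 and 0.02.

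EIF2AK3, the kinase of the ER membrane, was lower in Karpas422 with both hairpins. Karpas422 libraries read 27.6, 26.9 and 19.1 CPM with shCTRL, 18.6, 18.5 and 12.8 with shSIRT3-1 and 16.6, 15.8 and 15.9 with shSIRT3-2, so that all 6 knockdown values lay under the lowest control. The log2 differences were -0.56 (adjusted p = 0.0325) and -0.58 (adjusted p = 0.0297). That with shSIRT3-1 was lost without shCTRL replicate 1 or 2 or shSIRT3-1 replicate 3, and that with shSIRT3-2 without shCTRL replicate 1 or 2 or any shSIRT3-2 library, with adjusted p up to 0.108 and 0.104. The former was also lost under quantile normalization, median-ratio scaling, edgeR and no filter.

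In OCI-Ly1, EIF2AK3 read 27.1, 36.1 and 24.7 CPM with shCTRL, 20.1, 21.0 and 21.4 with shSIRT3-1 and 27.5, 29.97 and 27.9 with shSIRT3-2. Only the shSIRT3-1 libraries lay below all controls, with a log2 difference of -0.47 (adjusted p = 0.0602) that passed with the replicate block (0.0355), with quantile normalization (0.0409), median-ratio scaling (0.0347) and edgeR (0.0397), and without OCI-Ly1 shCTRL replicate 1 (0.0413). HBL1 groups overlapped the controls, at 14.6 ± 1.30 CPM with shCTRL, 12.4 ± 1.45 with shSIRT3-1 and 16.9 ± 1.25 with shSIRT3-2 (SD, n = 3), and the hairpins differed from each other there by 0.45 (adjusted p = 0.0217), a call lost without shSIRT3-2 replicate 1 or 3 (adjusted p up to 0.0829). Across lines EIF2AK3 fell by 0.42 ± 0.11 (SE) on the log2 scale with shSIRT3-1 (adjusted p = 0.00334), lost only on leaving out replicate 2 of every group (0.0612), and read -0.13 with shSIRT3-2 (95% interval -0.35 to 0.09, adjusted p = 0.361). Leaving out Karpas422 turned the latter to 0.10. The difference in response between lines was lost without any of 15 of the 27 libraries, with adjusted p between 0.0106 and 0.0870.

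EIF2AK4, the amino acid sensor, showed the largest fall among the kinases over the 3 lines, with shSIRT3-1. In HBL1 it read 40.1, 45.8 and 49.1 CPM with shCTRL, 18.1, 24.1 and 25.9 with shSIRT3-1 and 35.0, 36.9 and 45.0 with shSIRT3-2. The shSIRT3-1 mean was 50.4% of the control mean, with no overlap, and the shSIRT3-2 values reached into the control range. In Karpas422 it read 32.3, 35.1 and 39.2 CPM with shCTRL, 25.6, 28.9 and 19.4 with shSIRT3-1 and 36.6, 34.7 and 35.2 with shSIRT3-2. Again only shSIRT3-1 lay below the controls. The log2 difference with shSIRT3-1 was -0.996 in HBL1 (adjusted p = 0.00174), -0.54 in Karpas422 (adjusted p = 0.0147) and -0.60 ± 0.12 (SE) over the 3 lines (adjusted p = 0.000548), and none of these calls was lost without any 1 library.

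With shSIRT3-2, EIF2AK4 differed from shCTRL by -0.19 over the 3 lines (95% interval -0.45 to 0.07, adjusted p = 0.238), by 0.00 in Karpas422 (-0.31 to 0.31, adjusted p = 0.990) and by -0.21 in HBL1 (-0.57 to 0.15, adjusted p = 0.331). shSIRT3-2 was above shSIRT3-1 by 0.55 in Karpas422 (adjusted p = 0.0211) and by 0.79 in HBL1 (adjusted p = 0.00642), the former lost without shSIRT3-1 replicate 1 or shSIRT3-2 replicate 1 (adjusted p up to 0.0545). OCI-Ly1 libraries were spread, at 61.8, 46.8 and 70.7 CPM with shCTRL, 55.2, 38.3 and 57.7 with shSIRT3-1 and 49.1, 41.5 and 47.3 with shSIRT3-2. Replicate 2 was the lowest of each OCI-Ly1 group, and all groups overlapped. The log2 difference there was -0.25 with shSIRT3-1 (adjusted p = 0.409) and -0.36 with shSIRT3-2 (adjusted p = 0.225, or 0.0450 with the replicate block). The difference in response between lines was lost without OCI-Ly1 shSIRT3-1 replicate 1 or 3, OCI-Ly1 shSIRT3-2 replicate 2 or HBL1 shSIRT3-1 replicate 1 (adjusted p up to 0.0831).

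PPP1R15A, the inducible phosphatase subunit, was lower with both hairpins in HBL1 and, with shSIRT3-2, in Karpas422. HBL1 libraries read 68.6, 73.9 and 88.7 CPM with shCTRL, 35.4, 29.9 and 42.2 with shSIRT3-1 and 37.7, 37.5 and 58.7 with shSIRT3-2. Each knockdown value lay below each control, and the mean was 46.5% of control with shSIRT3-1 and 57.9% with shSIRT3-2. The log2 differences were -1.11 ± 0.20 (SE) (adjusted p = 0.00310) and -0.81 ± 0.20 (adjusted p = 0.0140). The latter was lost without HBL1 shCTRL replicate 3 (adjusted p = 0.0522), shSIRT3-2 replicate 1 (0.0608) or shSIRT3-2 replicate 2 (0.0560).

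Karpas422 libraries read 39.1, 56.8 and 24.5 CPM of PPP1R15A with shCTRL, 26.03, 29.2 and 27.8 with shSIRT3-1 and 16.6, 16.1 and 16.8 with shSIRT3-2. The shSIRT3-2 values were close together and below all controls, at 41.2% of the control mean, and the shSIRT3-1 values lay above the lowest control. The log2 difference was -1.19 ± 0.24 (SE) with shSIRT3-2 (adjusted p = 0.00514) and -0.45 with shSIRT3-1 (95% interval -0.98 to 0.07, adjusted p = 0.164), the latter -0.77 (adjusted p = 0.00662) without shCTRL replicate 3. The hairpins differed by -0.74 (adjusted p = 0.0474), a call lost without any of 7 of the 9 libraries (adjusted p up to 0.116).

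In OCI-Ly1 PPP1R15A was scarce, at 6.39, 13.3 and 6.74 CPM with shCTRL, 7.02, 9.996 and 6.74 with shSIRT3-1 and 6.66, 8.75 and 7.44 with shSIRT3-2. All groups overlapped, and replicate 2 was the highest of each. The log2 differences were -0.09 (95% interval -0.69 to 0.51, adjusted p = 0.855) and -0.13 (-0.73 to 0.47, adjusted p = 0.779). Over the 3 lines PPP1R15A fell by 0.55 ± 0.18 (SE) on the log2 scale with shSIRT3-1 (adjusted p = 0.0205) and by 0.71 ± 0.18 with shSIRT3-2 (adjusted p = 0.00376). Neither call was lost without any 1 library, but the former was lost on leaving out HBL1 (0.380) or replicate 1 or 2 of every group (0.0933 and 0.171), and the latter on leaving out Karpas422 (0.103) or replicate 2 (0.0827). The difference in response between lines was lost without any of 11 of the 27 libraries, with adjusted p between 0.00467 and 0.0747.

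PPP1R15B, the constitutive phosphatase subunit, gave the most stable falls of the 6. Karpas422 libraries read 84.6, 101 and 94.1 CPM with shCTRL, 61.7, 63.4 and 60.1 with shSIRT3-1 and 46.0, 56.5 and 53.4 with shSIRT3-2. HBL1 libraries read 65.7, 63.3 and 60.2 CPM with shCTRL, 42.6, 43.8 and 39.4 with shSIRT3-1 and 37.7, 42.7 and 42.6 with shSIRT3-2. In both lines every knockdown value lay well under the lowest control, and the group means stood between 55.8% and 66.5% of control. OCI-Ly1 overlapped, at 53.0, 66.7 and 50.1 CPM with shCTRL, 48.3, 54.6 and 42.05 with shSIRT3-1 and 45.3, 53.6 and 41.8 with shSIRT3-2, although 2 of 3 values with each hairpin were below all controls.

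Over the 3 lines PPP1R15B fell by 0.47 ± 0.08 (SE) on the log2 scale with shSIRT3-1 (adjusted p = 7.60e-05) and by 0.58 ± 0.08 with shSIRT3-2 (adjusted p = 7.33e-06). Within Karpas422 the differences were -0.59 (adjusted p = 0.00217) and -0.84 (adjusted p = 0.000417), and within HBL1 -0.59 (adjusted p = 0.00145) and -0.62 (adjusted p = 0.00126). These 6 calls held under all alternatives run, including leaving out each library. In OCI-Ly1 the differences were -0.23 (95% interval -0.55 to 0.10, adjusted p = 0.337) and -0.27 (-0.59 to 0.06, adjusted p = 0.255, or 0.0496 with the replicate block). The difference in response between lines stood just outside the threshold (adjusted p = 0.0508) and passed without any of 6 of the 27 libraries.

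Groups without overlap were counted against all genes in the same comparison. In HBL1, 5 of the 6 genes lay wholly below the controls with shSIRT3-1 (30.8% of genes did) and 3 with shSIRT3-2 (34.2%). In Karpas422, 4 did with shSIRT3-1 (32.2%) and 3 with shSIRT3-2 (24.4%). In OCI-Ly1, EIF2AK3 lay wholly below (15.0%) and EIF2AK2 wholly above (15.9%) the controls with shSIRT3-1, and 0 of the 6 lay apart with shSIRT3-2, where 33.3% of genes did.

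Across the 27 libraries, with each line centered on its own mean of log2(CPM + 0.1), the genes of most similar pattern differed for each of the 6. These values are descriptions over libraries that share lines, hairpins and depth. PPP1R15A was most like DDIT3 (Pearson r = 0.904), ATF4 (0.889) and APOM (0.860), and EIF2AK2 was most like SAMD9 (0.941), USP18 (0.920) and OAS3 (0.911). EIF2AK1 was most like PELI3 (0.947), MIF4GD (0.901) and NR3C1 (0.898), and EIF2AK4 was most like MGST3 (0.886), VWA8 (0.883) and HEBP2 (0.865). EIF2AK3 had lower values, with UBE2B at 0.847, RMND5A at 0.820 and RAD21 at 0.818, and PPP1R15B was most like LINC00662 (0.942), ROCK1P1 (0.926) and ZNF736 (0.925). Among the 6 themselves, r was highest between PPP1R15A and PPP1R15B (0.803) and between EIF2AK1 and EIF2AK4 (0.763), and lowest between EIF2AK2 and PPP1R15B (-0.02).

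Downstream of the kinases, the transcription factors and targets of the response moved further than the 6 genes did. All 12 listed genes fell over the 3 lines with each hairpin, with median log2 differences of -2.17 and -2.32. Of all genes 22.3% and 21.7% fell. The list was chosen with earlier results of these data known, and the study had reported lower ATF4 target genes from these same libraries. The count is therefore a description of the list and not a test. CHAC1, which degrades glutathione, had log2 differences of -3.74 with shSIRT3-1 and -4.25 with shSIRT3-2 (adjusted p = 2.82e-06 and 7.25e-07). The transcription factors CEBPB (-2.67 and -2.92), ATF3 (-2.73 and -2.80) and ATF5 (-2.55 and -2.39) fell likewise, with adjusted p of at most 1.66e-05. ATF4 mRNA fell by 0.91 and 1.03 (adjusted p = 5.34e-05 and 1.42e-05), and DDIT3, which encodes CHOP, fell by 1.27 and 1.86 (adjusted p = 0.00143 and 3.21e-05). The study reported no change of ATF4 mRNA by quantitative PCR, at days before that of these libraries. Its method and days differ from those here, and the reason for the unlike results was not tested. By line, 11 of 12 fell with each hairpin in Karpas422 (medians -2.39 and -2.74) and 12 of 12 in HBL1 (-2.55 and -2.41). Of all genes 22.2% and 16.4% fell in Karpas422, and 25.1% and 21.3% in HBL1. In OCI-Ly1, limma called 0 of 11 with shSIRT3-1 and 1 with shSIRT3-2, although the medians were -1.17 and -0.93. Few of all genes passed there in either direction, 7.31% and 9.42%. Unadjusted p was under 0.05 for 4 and 3 genes there, and edgeR called 0 and 2.

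**Figure D5:**
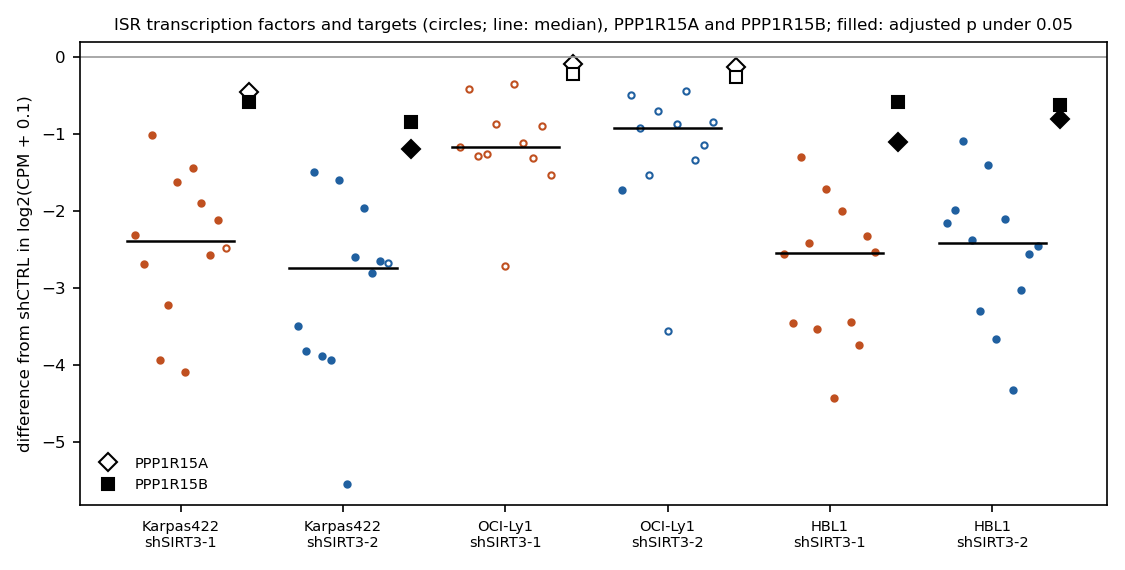
Log2 differences from shCTRL of the 12 transcription factors and targets of the integrated stress response (points, 11 of the 12 in OCI-Ly1), with their median as a line, PPP1R15A as a diamond and PPP1R15B as a square, for each hairpin in each line, filled where the adjusted p was under 0.05. The points lie further below 0 than both phosphatase subunits in Karpas422 and HBL1, with medians between -2.39 and -2.74.

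The substrate and its exchange factor changed unevenly. Of 8 subunits of eIF2 and eIF2B, 2 fell and 3 rose with shSIRT3-1, and 3 fell and 1 rose with shSIRT3-2, with median log2 differences of 0.10 and 0.08. Of all genes 37.9% and 38.1% passed in either direction. EIF2S2, the beta subunit of eIF2, fell by 0.88 and by 1.43 on the log2 scale (adjusted p = 6.71e-06 and 1.31e-08). EIF2S3, the gamma subunit, fell by 0.19 (adjusted p = 0.0283) and 0.33 (adjusted p = 0.000481), the former lost under quantile normalization, median-ratio scaling and edgeR and without any of 4 of the 27 libraries. EIF2B5, the catalytic subunit of the exchange factor, rose by 0.27 (adjusted p = 0.00371) and 0.33 (adjusted p = 0.000715), and EIF2B1 rose by 0.42 with shSIRT3-1 (adjusted p = 2.82e-06) and read 0.12 with shSIRT3-2 (adjusted p = 0.0855).

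Proteins that switch the kinases on or off were listed as 12 genes, of which 3 fell and 4 rose with shSIRT3-1 and 2 fell and 2 rose with shSIRT3-2. Over all genes 37.9% and 38.1% passed in either direction. The median log2 differences of the 12 were -0.06 and -0.03, near those of all genes, and the latter was 0.06 under quantile normalization. HSPA5, the ER chaperone that holds EIF2AK3 inactive, rose by 0.82 and 0.88 (adjusted p = 0.00294 and 0.00165). IMPACT, an inhibitor of EIF2AK4 activation, read -0.19 with shSIRT3-1 (adjusted p = 0.104) and fell by 0.75 with shSIRT3-2 (adjusted p = 1.43e-06). The adaptor NCK1 fell by 0.45 with shSIRT3-1 (adjusted p = 0.000109) and read -0.19 with shSIRT3-2 (adjusted p = 0.0565). NCK2 fell by 0.66 with shSIRT3-1 (adjusted p = 0.0199) and read -0.10 with shSIRT3-2 (adjusted p = 0.742), the latter turning to 0.00 under quantile normalization.

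Of the 3 catalytic subunits of protein phosphatase 1, 2 fell with shSIRT3-1 (median -0.20), and 1 fell and 1 rose with shSIRT3-2 (median 0.02). Of all genes 22.3% fell with shSIRT3-1, and 37.9% and 38.1% passed in either direction with the 2 hairpins. The medians of all genes were -0.05 and -0.03. PPP1CC fell by 0.48 with shSIRT3-1 (adjusted p = 0.00196) and by 0.30 with shSIRT3-2 (adjusted p = 0.0383), the latter lost under median-ratio scaling (0.0675) and no filter (0.0603) and without any of 11 of the 27 libraries. PPP1CB fell by 0.20 with shSIRT3-1 (adjusted p = 0.0199) and read 0.02 with shSIRT3-2 (adjusted p = 0.851), and PPP1CA read 0.02 with shSIRT3-1 (adjusted p = 0.846) and rose by 0.19 with shSIRT3-2 (adjusted p = 0.0367), a call lost with no filter (0.0518) and without any of 7 of the 27 libraries. Among 20 genes of the ER unfolded protein response, the arm of the stress response that EIF2AK3 shares, 5 fell and 4 rose with shSIRT3-1 and 8 fell and 6 rose with shSIRT3-2, beside 37.9% and 38.1% of all genes passing in either direction. Their medians were -0.04, or 0.04 under quantile normalization, and 0.04. EDEM1, which extracts misfolded proteins, fell by 1.58 and 1.17, and the sensor ERN1 fell by 1.24 and 1.10 (adjusted p of at most 0.000794). XBP1, the transcription factor that ERN1 splices, fell by 0.83 (adjusted p = 0.00340) and 1.01 (adjusted p = 0.000693), whereas the chaperone CALR rose by 0.91 (adjusted p = 0.000311) and 1.09 (adjusted p = 4.85e-05). HSPA5 and DNAJC3 stand in both of these last lists, and ADAR stands in that of the kinase regulators and that of the interferon-stimulated genes.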

How the data were processed

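Total RNA from 27 samples was made into random-primed TruSeq libraries by the authors, sequenced as paired ends, aligned to hg19 with STAR and counted on RefSeq genes with Rsubread. The deposited values are named FPKM, but in every library each is a whole multiple (within 1e-06) of a single step shared by genes of any length, so the values deposited by the authors were used as CPM of an unnamed library total, of which reads on the listed genes made up 40.3% to 45.6%.

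Values were tested as log2(CPM + 0.1) with limma 3.58.1 in R 4.3.3, empirical Bayes with a variance trend, and Benjamini-Hochberg adjustment over all genes with at least 1 CPM in at least 3 fitted libraries. The study named edgeR with an additive cell line term. Since the deposited values are not counts, edgeR 4.0.16 served as an alternative, on the recovered reads. A gene passed at an adjusted p under 0.05. Fold changes on the log2(CPM + 0.1) scale understate those of low genes. Whether lines differed in response was asked by an interaction F test. Each line, and the 9 shCTRL libraries, were also fitted alone.

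Same-numbered replicates of a line deviated together (27 pairs, mean r = 0.32, lowest 0.109 in OCI-Ly1, 0.217 in HBL1 and 0.0144 in Karpas422), so the numbers were taken to pair samples in OCI-Ly1 and HBL1 only, from the data and not from the labels. The 6 genes and the gene lists were chosen with earlier results of these data known. From each list the text names up to 4 passing genes with the largest mean change over both hairpins, plus ATF4, DDIT3 and EIF2S1. For each of the 6 genes it names the 3 genes with the highest r. Gene models were those of GENCODE on hg19. Alternatives were pseudocounts of 1 and 0.01, no filter, no variance trend, a replicate block, edgeR, quantile normalization, scaling by median ratios, and leaving out each library, replicate number or line. Protein sequences and the EIF2AK1 promoter were not used here.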

Additional observations from a re-analysis of the deposited data

Results flagged for a closer look

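The response to the SIRT3 hairpins differed between lines for 4 of the 6 genes in the interaction F test (limma, Benjamini-Hochberg). EIF2AK2 had an adjusted p of 0.00247, with log2 differences of -0.10, 0.46 and -1.15 with shSIRT3-1 and 0.33, 0.07 and 0.36 with shSIRT3-2 in Karpas422, OCI-Ly1 and HBL1. EIF2AK3 had an adjusted p of 0.0410, with -0.56, -0.47 and -0.23 and then -0.58, -0.02 and 0.22 in the same order. EIF2AK4 had an adjusted p of 0.0293, with -0.54, -0.25 and -0.996 and then 0.00, -0.36 and -0.21. PPP1R15A had an adjusted p of 0.0352, with -0.45, -0.09 and -1.11 and then -1.19, -0.13 and -0.81. SIRT3 itself differed in its response between lines (adjusted p = 0.00291), with log2 differences of -1.87, -2.78 and -2.70 with shSIRT3-1 and -0.88, -1.08 and -2.14 with shSIRT3-2, and the part of this in the 4 results was not tested. No group held 4 or more samples, so outlying libraries were not looked for in this way.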

How the results depend on the processing

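Of 4340 alternative values for 148 results on single genes, 4025 kept direction and side of the threshold, 214 lost a call, 57 gained one and 44 turned sign. The cause of these changes was not tested. Leaving out Karpas422 gave 1 passing gene of the 6 with shSIRT3-2 over the 3 lines, 1 between the hairpins and 2 for the response by line. Leaving out OCI-Ly1 gave 1 for the response by line, and leaving out HBL1 gave 0 for it and 1 between the hairpins. Quantile normalization gave 1 between the hairpins over the 3 lines. With no filter 2 genes differed in response by line. For shSIRT3-1 in Karpas422, no filter, quantile normalization, median-ratio scaling and edgeR gave 2 each, and in OCI-Ly1 quantile normalization, median-ratio scaling and edgeR gave 1 each.

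The replicate block gave 2 with shSIRT3-1 and 2 with shSIRT3-2 in OCI-Ly1 and 4 with shSIRT3-2 in HBL1. Counts over all genes rose there too, to 1456 and 1783 of 11205 and to 5299 of 11862. The Karpas422 numbers were not taken as pairs, and there and over the 3 lines the block moved no count by over 1.5 times. Over the 3 lines the block gave each replicate number a term shared by all lines, Karpas422 included. That fit therefore cannot show what pairing within lines would do to those counts. In 47 of 54 checks a library's deviations correlated best with the same number in another group of its line.

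Leaving out single libraries or replicate numbers gave 3 to 5 passing genes with shSIRT3-1 and 1 to 2 with shSIRT3-2 over the 3 lines, 0 to 3 between the hairpins and 0 to 5 for the response by line, 2 to 4 with shSIRT3-1 and 0 to 3 between the hairpins in Karpas422, 0 to 2 with shSIRT3-1 and 0 to 1 between the hairpins in OCI-Ly1, 1 to 3 with shSIRT3-2 in HBL1 and 2 to 5 between HBL1 and Karpas422 controls. Over the other settings the count between the hairpins in Karpas422 ran from 1 to 3.

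Signs that turned belonged to log2 differences that did not pass. Over the 3 lines these were EIF2AK2 with shSIRT3-1 (0.18 without HBL1), EIF2AK3 with shSIRT3-2 (0.10 without Karpas422), PPP1R15A between hairpins (0.13 without Karpas422), NCK2 with shSIRT3-2 (0.0036 under quantile normalization, 0.20 without HBL1), NCK1 with shSIRT3-2 (0.013 without Karpas422), PPP1CA with shSIRT3-1 (-0.0033 without Karpas422, -0.10 without OCI-Ly1) and PPP1CB with shSIRT3-2 (-0.0040 under quantile normalization, -0.052 without OCI-Ly1, -0.026 without HBL1). Within lines they were EIF2AK4 with shSIRT3-2 in Karpas422 (-0.0070 under quantile normalization), PPP1R15A between hairpins in OCI-Ly1 (0.015 under quantile normalization, 0.0066 under median-ratio scaling), PPP1R15B there (0.0077 under median-ratio scaling) and EIF2AK2 between HBL1 and Karpas422 (0.013 under quantile normalization).

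Without single libraries or numbers, ranges crossing 0 were, in Karpas422, -0.37 to 0.23 for EIF2AK2 with shSIRT3-1, -0.077 to 0.048 for EIF2AK1 and -0.064 to 0.076 for EIF2AK4 with shSIRT3-2, and -0.20 to 0.070 for EIF2AK3 between hairpins. In OCI-Ly1 they were -0.28 to 0.24 for PPP1R15A with shSIRT3-1, -0.081 to 0.043 for EIF2AK1, -0.059 to 0.21 for EIF2AK2, -0.13 to 0.14 for EIF2AK3 and -0.32 to 0.20 for PPP1R15A with shSIRT3-2, and -0.14 to 0.14 for PPP1R15A and -0.14 to 0.052 for PPP1R15B between hairpins. Others were -0.079 to 0.024 for PPP1R15B between hairpins in HBL1, -0.35 to 0.25 for EIF2AK2 between HBL1 and Karpas422, -0.047 to 0.060 for PPP1CA with shSIRT3-1 and -0.067 to 0.066 for PPP1CB with shSIRT3-2.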
